A study of Mus musculus with 4 samples.

Results

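The urea cycle and ammonia-handling genes of mouse liver were examined in livers of mice starved for 24 h and of control mice. They were chosen by symbol as 9 genes, namely Nags, Cps1, Otc, Ass1, Asl, Arg1, Glud1, Glul and Gls2, and all probe sets annotated to 1 of them alone were taken, 11 of the 22626 probe sets tested. A gene test could be made for 7 of the 9, among 12393 genes in all. Ass1 was listed only on a probe set that it shares with a second gene, and Gls2 was not analysed here. The study compared total RNA from the livers of 2 starved mice and 2 control mice on an Affymetrix array of 22690 probe sets. All 4 mice were wild type, of the C57/BL6 background and 1 month old, and each array is labelled as a biological replicate. The description field of the labels calls the starved mice injected and the control mice not injected. The grouping follows the titles and the treatment field.

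Amino acids that are burned for energy give off ammonia, which is toxic, and the liver converts it to urea. In mitochondria, Nags makes the N-acetylglutamate that switches on Cps1, Cps1 joins ammonia to bicarbonate, and Otc passes the product to ornithine. In the cytosol, Ass1 adds aspartate, Asl releases fumarate and arginine, and Arg1 splits arginine into urea and ornithine. The cycle enzymes are found mostly in hepatocytes near the portal vein, together with the glutaminase Gls2, while Glul, the glutamine synthetase, is confined to hepatocytes around the central vein, where it captures the ammonia that escaped the cycle.

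Asl was 2.05-fold higher in starved liver, although this difference did not pass the test over all genes. The other 6 measured members had log2 changes from -0.20 to 0.16 in the gene test. Of the 7 member genes, 0 passed the limma test at an adjusted p under 0.05, where 0.0646% of all genes did. At an unadjusted p under 0.05 there was 1 member, Asl, or 14.3% of the 7, against 11.3% of all genes. The starved and control arrays did not overlap in 3 of the 7, which is 42.9% of them and close to the 42.2% of all genes. Asl and Arg1 lay higher in starved liver, as did 21.4% of all genes without overlap, and Otc lay lower, as did 20.9%. The median log2 change of the 7 members, starved minus control, was 0.14, beside 0.0031 over all genes.

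The check of tissue and labels covered the whole array. The summed signal of 8 hepatocyte markers was 17.52 and 17.45 in starved liver and 17.52 and 17.40 in control liver (log2). Signals were summed before the log, so the brightest markers weigh most and the sum says little of the dimmer ones. Alb read 15.26 and 15.28 in starved liver and 15.30 and 15.21 in control liver, near the highest value in the data, 15.47. The markers were not all this even. Tat, in the same list, read 13.65 on starved 1, 12.41 on starved 2, 13.20 on control 1 and 13.04 on control 2. Of 8 measured genes listed for their response to fasting, Ehhadh and Thrsp had the smallest p. They were picked by p in these same data, so they are no independent check of the labels. Ehhadh, a peroxisomal enzyme induced by fasting, had log2 signals of 13.50 and 13.42 in starved liver and 11.18 and 10.87 in control liver. It passed the limma test over all genes (adjusted p = 0.0385, and 0.00797 to 0.129 over the alternatives). Thrsp, a regulator of fat synthesis that feeding induces, had 10.59 and 10.75 in starved liver and 14.14 and 13.12 in control liver (limma, adjusted p = 0.0679, and 0.00447 to 0.324 over the alternatives). The gap between the 3′ and 5′ actin control probe sets, which widens as RNA degrades, was 2.06 on starved 1, 1.85 on starved 2, 1.79 on control 1 and 1.76 on control 2 (log2). For Gapdh that gap was 0.86 on starved 1, 0.48 on starved 2, 0.65 on control 1 and 0.54 on control 2, so starved 1 was again highest but starved 2 lowest. Control 2 stood apart in acute phase genes, with a median signal of 13.91 over the 10 measured, against 11.95 on starved 1, 11.92 on starved 2 and 12.18 on control 1 (log2). By mean all 10 were lower in starved liver, but the control means include control 2, and 0 passed the limma test. In 7 of them the groups did not overlap, where 20.9% of all genes were lower without overlap. Saa4, which had the smallest p of the list, read 12.90 and 13.04 in starved liver and 13.86 and 13.95 in control liver. In other genes of the list the controls disagreed. Saa3 read 8.74 and 8.76 in starved liver, 8.77 on control 1 and 12.36 on control 2, a narrow margin without overlap. Saa2 read 11.71 and 11.44 in starved liver, 11.07 on control 1 and 14.80 on control 2, so there the groups overlapped. In bulk liver, fewer cells of a type and less RNA per cell cannot be told apart.

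The first members in the cycle showed small differences. Nags read 9.82 and 9.54 in starved liver and 9.42 and 9.61 in control liver (log2 signal), a log2 change of 0.16 ± 0.15 (SE, limma, adjusted p = 0.755), or 0.02 without starved 1 and 0.07 without control 1. Starved 1 was the highest of the 4 arrays and starved 2 lay between the controls, so the groups overlapped. Cps1, which carries out the rate-limiting step, read 14.64 and 14.36 in starved liver and 14.46 and 14.25 in control liver, a log2 change of 0.14 ± 0.15 (SE, limma, adjusted p = 0.802). Here too starved 1 was highest and starved 2 fell between the control arrays. Without starved 1 the Cps1 change was -0.0019, so its direction rests on that array.

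Otc was the cycle enzyme with lower signals in starved liver, and it was read by 3 probe sets, which share 1 gene and are not replicates. The probe set with the highest mean, used in the gene test, gave 13.29 and 13.29 in starved liver and 13.58 and 13.40 in control liver, a log2 change of -0.20 ± 0.12 (SE, limma, adjusted p = 0.598), or -0.11 without control 1. Probe set 1436615_a_at gave 12.85 and 12.69 in starved liver and 12.92 and 12.88 in control liver, a change of -0.13, which was -0.05 when starved 2 was left out and -0.21 when starved 1 was. Probe set 1425540_at gave 8.25 and 7.94 in starved liver and 8.38 and 8.46 in control liver, a change of -0.32 ± 0.15 (SE, limma over all probe sets, adjusted p = 0.479), or -0.16 without starved 2. In each of the 3 both starved arrays lay below both control arrays, as in 20.6% of all probe sets, and none of the 3 passed the test.

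Sequence before the gene start was read for the members from RefSeq promoter windows of GRCm38.p6, 250 bases before to 50 after a start. Windows for 5 members were used (Otc, Nags, Glud1, Glul and Ass1), and none for Cps1, Asl, Arg1 or Gls2. The loose C/EBP pattern TTNNGNAA, searched on both strands since C/EBP factors are known regulators of the urea cycle genes, was present in 2 of the 5 and in 40.7% of all 32851 windows. The windows with it were those of Otc and Nags, shown here up to the RefSeq gene start with the matches in capitals. They lie at chrX:10252055-10252229 and chr11:102145263-102145512, both on the plus strand, and run 5′ to 3′.
Otc: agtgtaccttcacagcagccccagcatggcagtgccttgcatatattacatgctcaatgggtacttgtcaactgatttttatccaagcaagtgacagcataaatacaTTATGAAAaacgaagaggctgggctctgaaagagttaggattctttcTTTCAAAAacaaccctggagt
Nags: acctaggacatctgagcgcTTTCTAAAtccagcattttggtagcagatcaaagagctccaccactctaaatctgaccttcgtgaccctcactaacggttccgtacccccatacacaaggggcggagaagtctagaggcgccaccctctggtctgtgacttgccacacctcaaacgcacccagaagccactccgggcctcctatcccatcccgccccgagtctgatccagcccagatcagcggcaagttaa
The stricter palindrome TTGCGCAA was in 0 of the 5 windows and 0.183% of all. The cAMP response core TGACG was in 1 of the 5, that of Nags after its start, and in 20.8% of all. The full element TGACGTCA, the palindromic glucocorticoid response element and the nuclear receptor direct repeat with 1 base between its copies were in 0 of the 5, and in 1.79%, 0.475% and 0.0396% of all windows. These matches describe letters and were not tested against the changes of the genes.

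Probe set 1416239_at is annotated to both Ass1 and Gm5424, a transcribed pseudogene in RefSeq, and is assigned to neither here. It read 12.60 and 11.88 in starved liver and 12.40 and 12.49 in control liver (log2 signal). The starved arrays lay on opposite sides of the controls, starved 1 above and starved 2 below. The change was -0.20 ± 0.24 (SE, limma over all probe sets, adjusted p = 0.831). Leaving out starved 1 gave -0.56, and leaving out starved 2 gave 0.16, so the sign rests on which starved mouse is kept.

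Asl, the argininosuccinate lyase, read 13.28 and 12.54 in starved liver and 11.97 and 11.78 in control liver (log2 signal). Both starved arrays were above both controls, and the gap between the starved arrays was 0.74, against 0.18 between the control arrays. The log2 change was 1.03 ± 0.25 (SE), with a 95% interval of 0.41 to 1.65, an unadjusted p = 0.00681 and an adjusted p = 0.245 in limma. It was 1.40 without starved 2 and 0.67 without starved 1 (limma, adjusted p = 0.130 and 0.548). Only 1.23% of all genes had a larger change in either direction, which describes its size and does not replace the test. The actin and Gapdh gaps were also widest on starved 1, and their part in the Asl value was not tested.

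Arg1, which releases urea, read 14.42 and 14.16 in starved liver and 14.13 and 14.13 in control liver, a log2 change of 0.16 ± 0.13 (SE, limma, adjusted p = 0.730). The starved arrays lay above the controls, starved 2 by a narrow margin, and without starved 1 the change was 0.03. Macrophages and neutrophils can also express Arg1. The summed signal of 6 Kupffer cell markers was 12.72 and 12.83 in starved liver and 12.71 and 13.02 in control liver, and that of 6 neutrophil markers was 8.21 and 8.59 in starved liver and 8.24 and 9.32 in control liver (log2). Both sums were highest on control 2. In the neutrophil list S100a8 and S100a9 differed most, at 7.67 and 7.93 on control 2 and 5.53 and 6.29 on control 1. Ngp, Camp, Elane and Mpo read 5.76, 5.80, 5.66 and 4.88 on control 2 and 5.75, 5.81, 5.42 and 4.61 on control 1. Among Kupffer cell markers Marco was higher by mean in starved liver and 5 were lower. The part of either sum in the Arg1 signal was not tested.

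**Figure D1:**
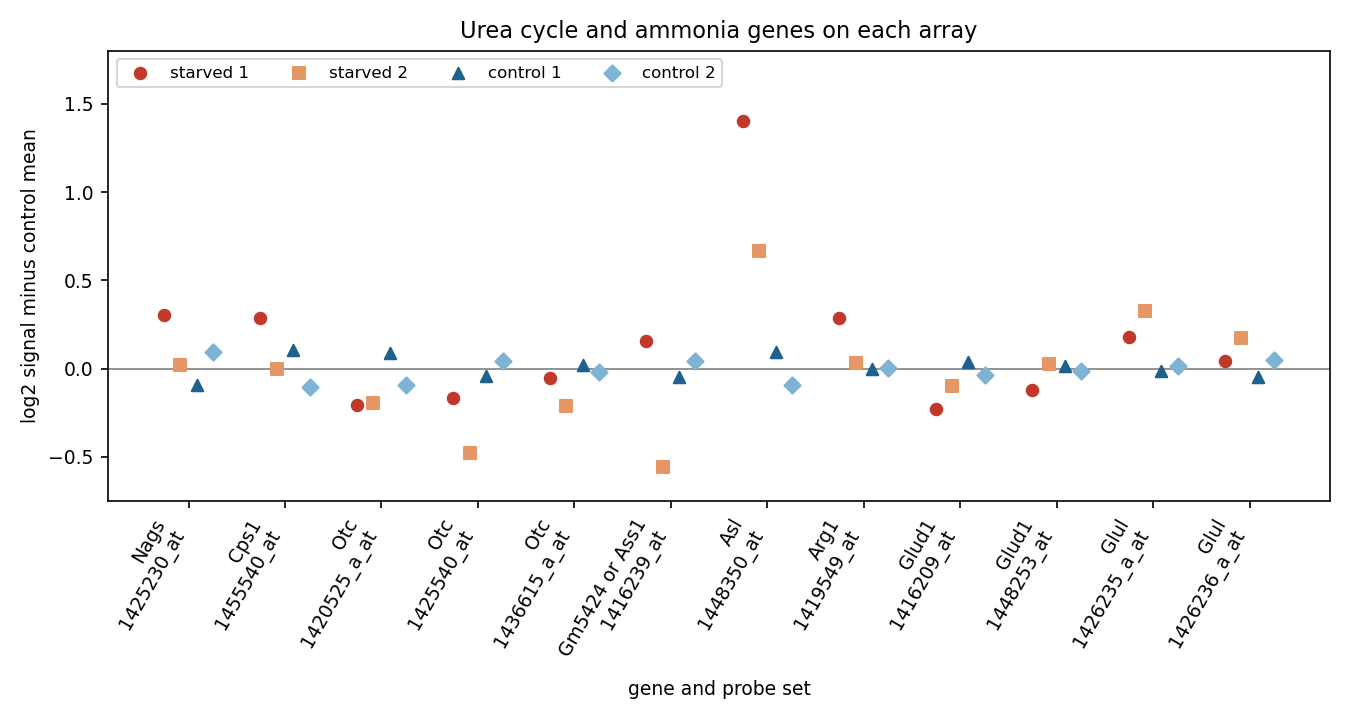
Log2 signal of each probe set minus its control mean (vertical axis) for every array, with 1 column per probe set. Asl stands 1.40 above its control mean on starved 1 and 0.67 above on starved 2, the 3 Otc probe sets lie below it on both starved arrays, and Nags, Cps1 and Arg1 are raised on starved 1 but near the control mean on starved 2.

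The ammonia-handling enzymes outside the cycle differed little. Glud1, the mitochondrial glutamate dehydrogenase that frees ammonia from glutamate, read 13.36 and 13.50 in starved liver and 13.49 and 13.47 in control liver, a log2 change of -0.05 ± 0.12 (SE, limma, adjusted p = 0.941). The groups overlapped, with starved 1 lowest and starved 2 highest. A second Glud1 probe set, 1416209_at, read 12.69 and 12.83 in starved liver and 12.96 and 12.88 in control liver, a change of -0.16 (-0.10 without starved 1), and in it the groups did not overlap. Without starved 1 the change of the first was 0.02, so that probe set gave no settled direction.

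Glul read 12.56 and 12.69 in starved liver and 12.47 and 12.57 in control liver on the probe set of the gene test, a log2 change of 0.11 ± 0.12 (SE, limma, adjusted p = 0.811), or 0.04 without starved 2 and 0.17 without starved 1. Starved 1 was just below control 2, so the groups overlapped. On probe set 1426235_a_at, Glul read 11.05 and 11.19 in starved liver and 10.86 and 10.88 in control liver, a change of 0.25 ± 0.12 (SE, limma over all probe sets, adjusted p = 0.491), without overlap. On both probe sets starved 2 was the highest of the 4 arrays, unlike Nags, Cps1, Asl and Arg1, in which starved 1 was highest.

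Counted by probe set, 0 of the 11 passed limma over all probe sets, where 0.0575% did, and 1 had an unadjusted p under 0.05 (9.09%, against 11.5% of all). The groups did not overlap in 7 of the 11, against 41.9% of all probe sets. They were 3 higher and 4 lower, beside 21.3% and 20.6% of all, and 3 of the 4 lower ones are Otc. A failed test does not show that the members did not differ. For the 6 member genes other than Asl, the 95% intervals of the log2 change reached no lower than -0.50 and no higher than 0.53. For the 10 member probe sets other than that of Asl they reached from -0.68, in Otc on 1425540_at, to 0.54.

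**Figure D2:**
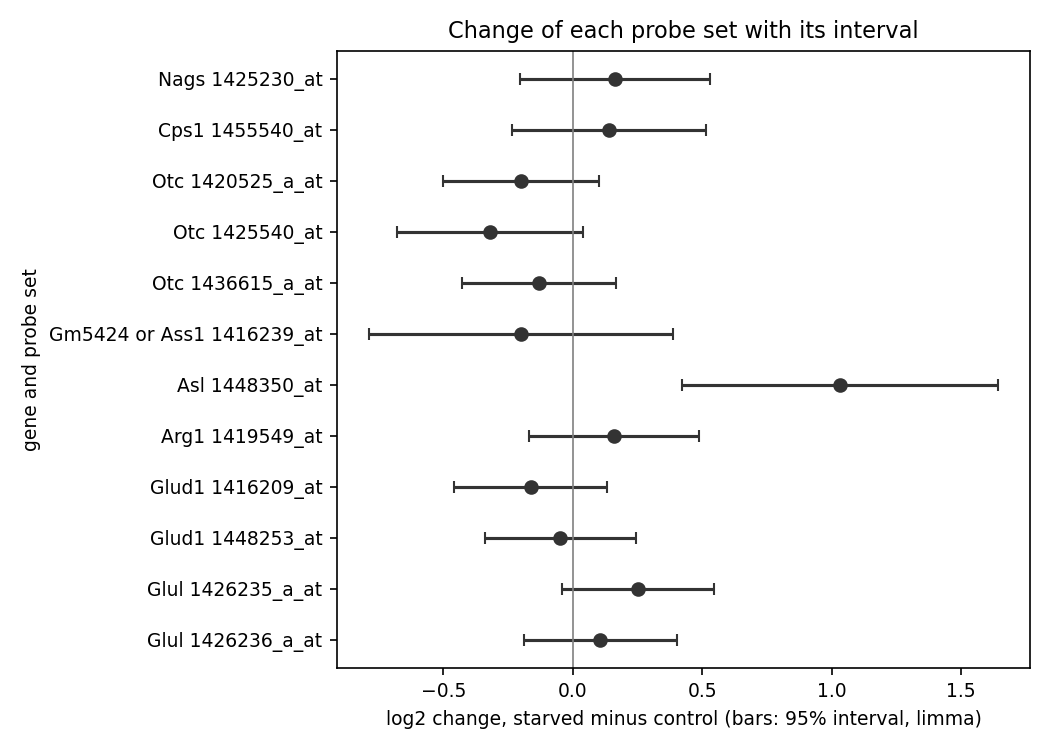
Log2 change, starved minus control (horizontal axis), with its 95% interval from limma over all probe sets, for the 11 member probe sets and the shared probe set of Ass1 and Gm5424. Every interval but that of Asl spans 0, and the intervals take no account of the number of probe sets tested.

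The starved arrays differed from each other in several members. Relative to each gene's control mean, the median of the 7 members was 0.28 on starved 1 and 0.02 on starved 2, beside 0.0032 and 0.0033 over all genes (log2). Starved 1 exceeded starved 2 by 0.74 in Asl, 0.29 in Cps1, 0.28 in Nags and 0.26 in Arg1, while the difference was -0.01 in Otc, -0.14 in Glud1 and -0.13 in Glul. Control 1 minus control 2 was 0.18 in Asl, 0.21 in Cps1, -0.19 in Nags and -0.0022 in Arg1. It was 0.18 in Otc, 0.03 in Glud1 and -0.10 in Glul. The median absolute gap over all genes was 0.14 between the starved arrays and 0.15 between the control arrays. A gap between the starved arrays wider than that of Asl was found in 1.61% of genes. For Cps1, Nags and Arg1 the shares of genes with a wider gap were 19.3%, 19.8% and 23.6%. Each array is 1 mouse, so such gaps have no test.

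Genes around the cycle were taken from 6 lists of transporters, enzymes, regulators and zone markers, with 68 of 79 genes measured. In limma 0 of the 68 passed over all genes, and 16 had an unadjusted p under 0.05 (23.5%, against 11.3% of all genes), 7 higher and 9 lower. The groups did not overlap in 20 higher and 18 lower genes (55.9% together, against 42.2% of all genes). The lists were drawn from textbook knowledge with results of these data known, so no test of a list was made.

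Genes of amino acid transport and bicarbonate supply lay on both sides of their control levels. Of 17 genes 15 were measured, and 0 passed the limma test. At an unadjusted p under 0.05, 2 were higher and 2 lower, a level reached by 11.3% of all genes. The median log2 change was 0.01 (0.13 when starved 1 was left out, -0.05 when starved 2 and -0.09 when control 1 was). Slc38a3, a glutamine carrier of hepatocytes, read 12.62 and 12.53 in starved liver and 13.15 and 12.95 in control liver, a change of -0.47 ± 0.13 (SE, limma, adjusted p = 0.279). Car5a, the mitochondrial carbonic anhydrase that supplies bicarbonate to Cps1, read 9.62 and 9.65 in starved liver and 10.38 and 9.97 in control liver, a change of -0.54 ± 0.16, or -0.34 without control 1. Slc7a2, a carrier of arginine and other cationic amino acids, read 10.61 and 9.78 in starved liver and 9.33 and 9.38 in control liver, a change of 0.84 ± 0.27. Leaving out starved 2 gave 1.26, and leaving out starved 1 gave 0.43. The mean of all Slc7a2 probe sets gave a smaller change of 0.47. In these genes the groups did not overlap. Slc1a2, a glutamate carrier of pericentral hepatocytes, had a change of 0.40 ± 0.14 (SE), or 0.26 without control 2.

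Enzymes that move amino groups and ornithine had a median log2 change of 0.20 over 13 of 15 genes (0.11 without control 2, 0.11 without _x_at and _s_at probe sets and 0.39 once the dimmest 40% of genes were dropped). Of the 13, 0 passed the limma test. At an unadjusted p under 0.05, 2 were higher and 1 lower, a level reached by 11.3% of all genes. Gpt2, the mitochondrial alanine aminotransferase, read 13.31 and 13.25 in starved liver and 12.38 and 12.43 in control liver, a change of 0.88 ± 0.11 (SE, limma, adjusted p = 0.0882). Its arrays of a group lay close together, unlike those of Asl. Gpt2 was named for the smallest p of the list, which favours genes with little spread within groups. Its value comes from an _s_at probe set, and without _x_at and _s_at probe sets the change was 0.99 ± 0.16 (SE, limma). The cytosolic Gpt had a change of 0.47 ± 0.18, or 0.26 without control 2. Got1, the cytosolic aspartate aminotransferase, read 12.82 and 12.09 in starved liver and 11.38 and 12.05 in control liver, a change of 0.74 ± 0.31, with starved 2 barely above control 2. The Got1 change was 0.38 without starved 1, 0.41 without control 1 and 1.08 to 1.11 without either of the other arrays. Gatm, which uses arginine to make the creatine precursor guanidinoacetate, was lower, with a change of -0.66 ± 0.19, and did not pass the test (limma, adjusted p = 0.291).

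Enzymes that release ammonia from amino acids or nucleotides had a median log2 change of 0.02 over 9 of 13 genes, or -0.14 without control 2, -0.01 without starved 1 and 0.19 without control 1 or starved 2, and 0 passed the limma test. Ampd2, an AMP deaminase, read 8.10 and 9.51 in starved liver and 10.65 and 10.40 in control liver, a change of -1.72 ± 0.44 (SE, limma, adjusted p = 0.258). That value comes from an _x_at probe set, a type that may bind related transcripts, and without _x_at and _s_at probe sets it was -0.36. It was -1.02 without starved 1. Gldc, the glycine decarboxylase, read 11.66 and 10.84 in starved liver and 10.50 and 10.69 in control liver, a change of 0.65 ± 0.27. Cth, the cystathionine lyase, read 13.74 and 12.82 in starved liver and 12.74 and 12.64 in control liver, a change of 0.59 ± 0.30. Ada, the adenosine deaminase, had a change of 0.41 ± 0.17, which was 0.20 when control 2 was left out and 0.63 when control 1 was. In Gldc and Cth starved 1 stood well above the other 3 arrays, as it did in Asl. Leaving it out gave 0.24 for Gldc and 0.13 for Cth, and leaving out starved 2 gave 1.06 and 1.05.

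Regulators of the cycle genes had a median log2 change of 0.03 over 11 of 12 genes, or -0.02 without starved 2 and 0.09 without control 1 or starved 1, and 0 passed the limma test. Foxo1, a factor that insulin restrains, read 9.82 and 9.67 in starved liver and 9.28 and 9.29 in control liver, a change of 0.46 ± 0.12 (SE, limma, adjusted p = 0.261). Onecut1, a hepatocyte factor, had a change of -1.48 ± 0.57 and ranged from 7.44 to 8.36 in starved liver and from 8.56 to 10.21 in control liver. Without control 2 the Onecut1 change was -0.66, and without control 1 it was -2.31. Ppargc1a, a coactivator of fasting genes, had a change of 1.01 ± 0.40, which was 0.37 when starved 1 was left out and 1.65 when starved 2 was. Nr3c1, the glucocorticoid receptor, had a change of -0.25 ± 0.13 (limma, adjusted p = 0.527), or -0.14 without starved 1.

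Markers of the liver zones other than the members had median log2 changes of -0.25 over 9 of 11 periportal genes and -0.02 over 15 of 16 pericentral genes. With 1 array left out the first ran from -0.36 (without starved 1) to -0.10 (without control 2), and the second from -0.15 (without starved 2) to 0.15 (without starved 1). By sign 4 periportal genes were higher and 5 lower, and 7 pericentral genes higher and 8 lower. The groups did not overlap in 5 higher and 6 lower pericentral genes, and in 1 higher and 2 lower periportal genes. Of all genes 21.4% were higher and 20.9% lower without overlap. In limma 0 genes of either list passed. Among pericentral genes Cyp1a2, which oxidises caffeine, read 11.81 and 12.05 in starved liver and 13.09 and 12.99 in control liver, a change of -1.10 ± 0.13 (SE, limma, adjusted p = 0.0788, or 0.049993 with trend and robust settings). Rgn, a calcium-binding protein also called regucalcin, had a change of -0.59 ± 0.18 (-0.37 without starved 1) and Gulo, of vitamin C synthesis, of -0.37 ± 0.13, neither past the test. Slc1a2, given above among the carriers, was the pericentral gene with the smallest p among those higher in starved liver. Among periportal genes Hsd17b6 had a change of -1.25 ± 0.53 and Cyp2f2 of -0.26 ± 0.13, both with starved arrays below the controls, while Hsd17b13 was at 0.33 ± 0.14 and Cdh1, the epithelial cadherin, at -0.87 ± 0.43 with overlapping groups. With 1 array left out Hsd17b6 ran from -1.89 (without control 2) to -0.60 (without control 1), and Cdh1 from -1.48 (without control 1) to -0.27 (without control 2). Cyp2f2 was -0.15 without starved 2, and Hsd17b13 was 0.21 without control 1.

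**Figure D3:**
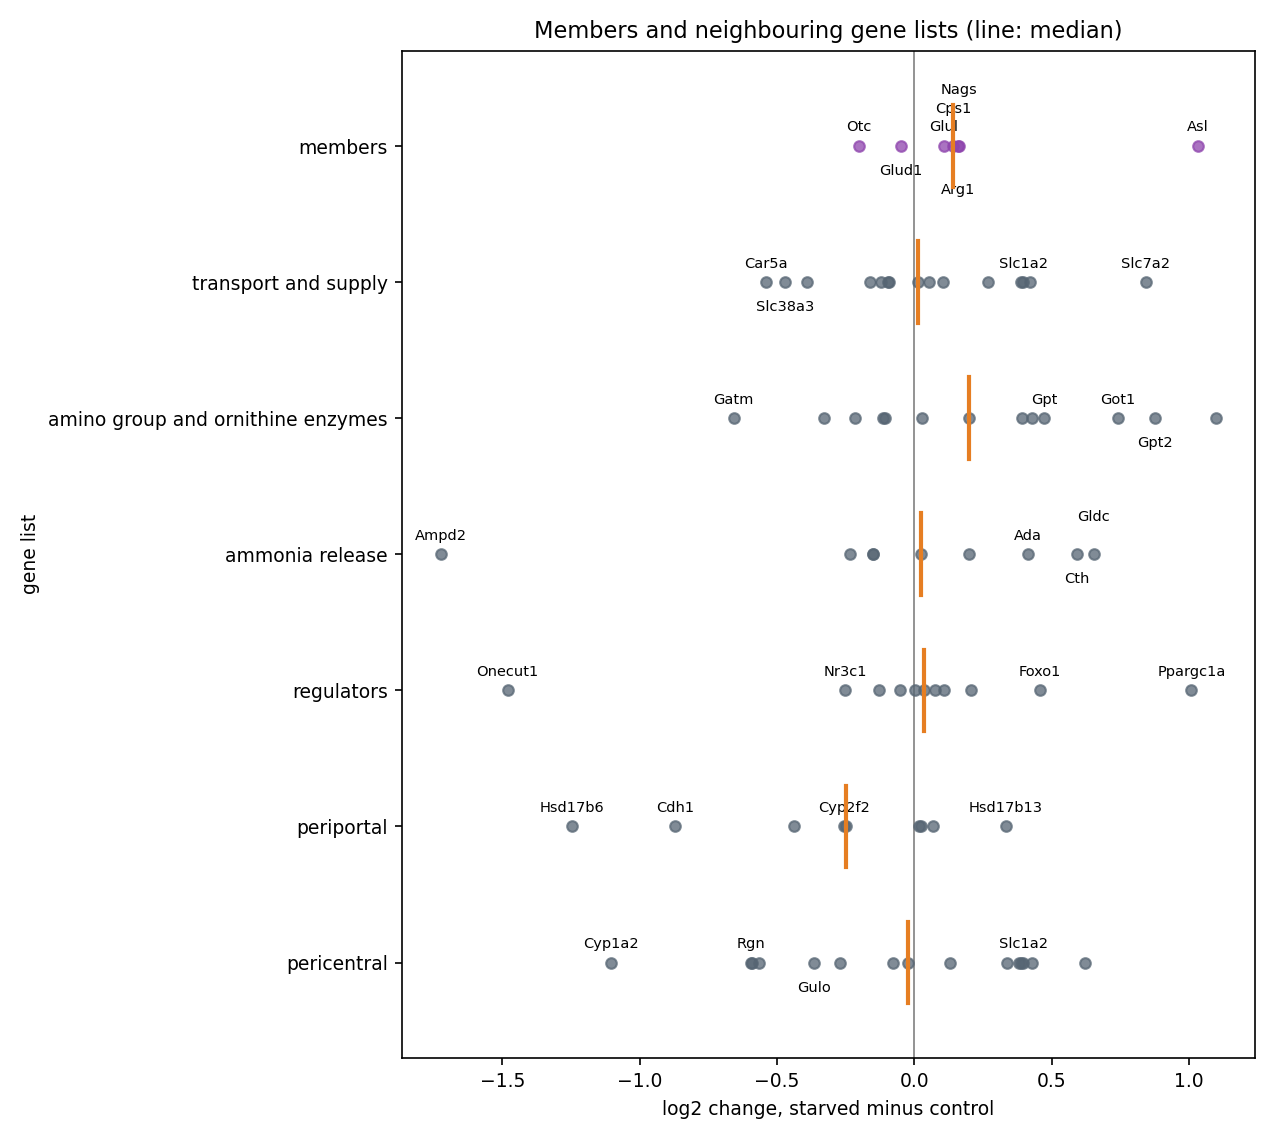
Log2 change, starved minus control (horizontal axis), of each measured gene in the member list and the 6 neighbouring lists, with the list median as a line and the members and up to 4 genes of smallest p per list named. Asl at 1.03 stands apart from the other 6 members, which lie between -0.20 and 0.16.

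Differences between the starved arrays were also frequent in these lists. Starved 1 exceeded starved 2 by more than 0.5 (log2, a limit chosen after the values were seen) in 11 of the 68 genes, or 16.2%, against 2.25% of all genes, and the reverse held for 6, or 8.82%, against 2.57%. The 11 included Slc7a2, Got1, Gldc, Cth and Ppargc1a. The control arrays differed by as much in 4 genes with control 1 above and 9 with control 2 above (5.88% and 13.2%, against 4.15% and 3.08% of all genes).

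**Figure D4:**
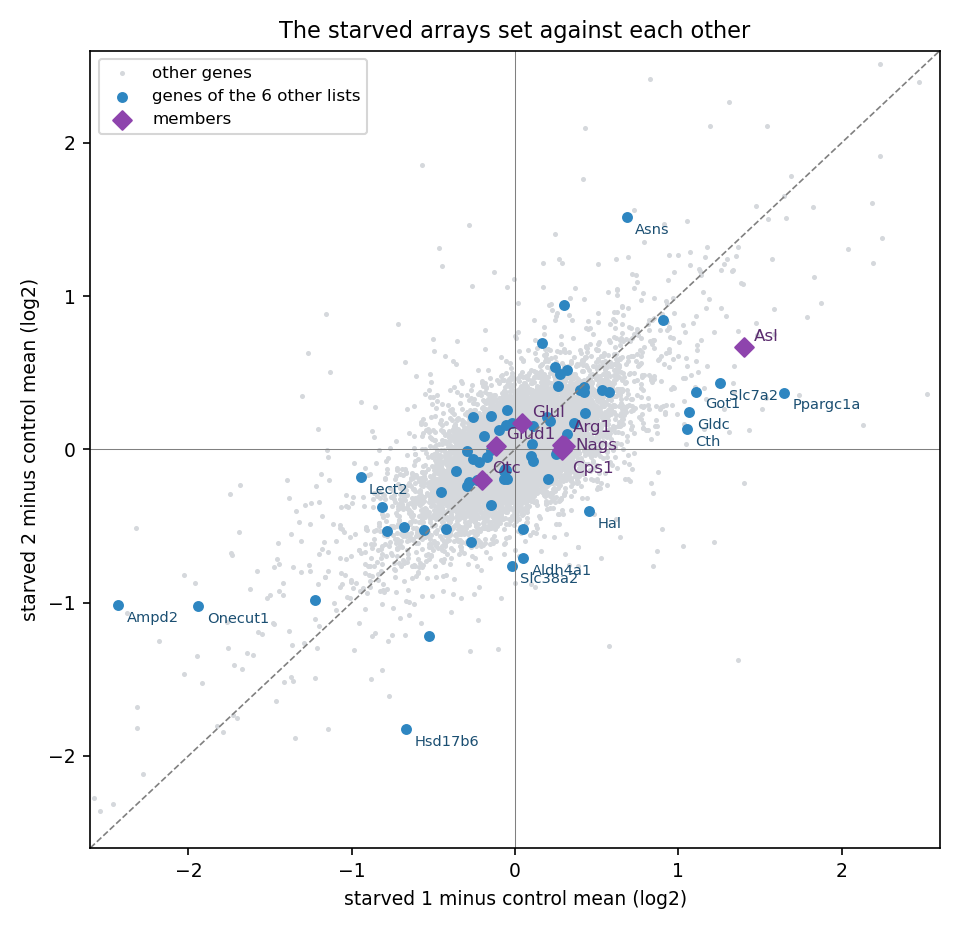
Log2 signal minus the control mean on starved 1 (horizontal axis) and starved 2 (vertical axis), with 1 point per gene and 22 other genes outside the plotted range. Points right of and below the dashed line are higher on starved 1, and Asl, Slc7a2, Got1, Gldc, Cth and Ppargc1a lie there, while Glul and Glud1 lie on the other side.

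Genes with the pattern most like that of Asl were Glrx, Cdip1 and Asic5, at Euclidean distances of 0.14, 0.13 and 0.16 between centred log2 values over the 4 arrays. Glrx, a glutaredoxin, read 10.94 and 10.34 in starved liver and 9.60 and 9.55 in control liver. Those nearest to Glul were Mst1, 1700029H14Rik and Zbtb32, at distances of 0.013, 0.023 and 0.024. With 4 arrays many genes share such patterns, and the distances are a description only.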

How the data were processed

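The deposited values are log2 signals per probe set, which the authors made with RMA in affy, per the submitters' processing notes. Versions, settings and whether other arrays were normalized with these 4 are not given in the sources used. Quantile normalization hides a shift shared by all transcripts, and 4 arrays allow little precision.

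Control probe sets (64) were left out. Of the others 20380 had 1 symbol, 691 several and 1555 none, and only the first were named. Symbols were updated through Entrez identifiers in RefSeq GRCm38.p6 (20351 matched, 29 kept). A gene was read from the probe set of highest average signal, groups ignored. The groups were compared in limma 3.58.1 (lmFit, eBayes, R 4.3.3), two-sided, with Benjamini-Hochberg adjustment over 12393 genes, and again over 22626 probe sets. The median SE was 0.133. An exact permutation of 2 against 2 arrays cannot go below p = 0.333 and was not used.

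The members and lists were chosen with earlier results of these data known. All members and probe sets are given, with up to 4 genes of smallest p per neighbouring list, up to 3 per control list and 3 nearest in pattern for Asl and Glul. Alternatives changed the normalization, low filter, probe sets, variance model, replicate block and arrays included. Same-numbered arrays did not deviate together (r = 0.017 across genes of the deviations from group means), so the numbers were not taken as pairs.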

Additional observations from a re-analysis of the deposited data

How the results depend on the processing

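Over 11 alternatives 0 member genes passed limma in each, as in the fit reported. The median change of the members ran from 0.024 to 0.28 with 1 array left out. Asl kept its direction in all 11, with changes of 0.67 to 1.40 and adjusted p of 0.130 to 0.548 in limma. With 1 array left out, Cps1 ran from -0.0019 to 0.28 and Glud1 from -0.12 to 0.024, the only members whose direction turned, both without starved 1. The count of all genes past limma, 8, was 0 after a further quantile normalization, 27 with trend and robust settings, 0 with the replicate block and 2 to 59 with 1 array left out. That of probe sets, 13, was 23 without _x_at and _s_at probe sets, 59 with trend and robust settings, 0 with the replicate block and 2 to 57 with 1 array left out. The cause of these shifts was not tested. The block leaves few residual degrees of freedom, and it changed no call among the members. Where 1 array is left out, the lone array is taken to vary like the 2 of the remaining group. Signals were not compared with background, so a low one does not mean absence.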

Other observations

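Among the zone markers, arrays of both groups differed within the group. Starved 1 exceeded starved 2 by more than 0.5 on the log2 scale in 3 of 9 periportal genes (33.3%, against 2.25% of all genes) and in 0 of 15 pericentral genes, while the reverse held for 0 periportal and 3 pericentral genes (20%, against 2.57% of all genes). Between the control arrays, control 2 exceeded control 1 by as much in 3 of 9 periportal genes (33.3%, against 3.08% of all genes) and control 1 exceeded control 2 in 1, and in pericentral genes these counts were 2 of 15 (13.3%) and 1. Hal, the histidine ammonia-lyase and a periportal gene chosen after its values were seen, read 12.39 and 11.53 in starved liver and 12.10 and 11.77 in control liver. The 3 pericentral genes higher on starved 2, likewise chosen after their values were seen, were Oat, the ornithine aminotransferase, Tbx3 and Lect2. Oat read 13.19 and 13.72 in starved liver and 13.06 and 13.00 in control liver. The limit of 0.5 was also chosen after the values were seen, each array is 1 mouse, and the pattern has no test.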
